A study of Homo sapiens with 4 samples.

Results

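The genes described here form 1 stretch at the tip of the short arm of human chromosome 17, from its first measured gene up to KDM6B, the gene that the experiment targeted. Members were the genes that the platform annotation names with a single symbol and whose start in the RefSeq table of the GRCh38.p14 assembly lies on chromosome 17 below 7834217, the start of KDM6B. KDM6B itself was left out. Each gene was read by its brightest probe set, the one with the highest mean over all 4 arrays, and a gene was kept if that mean reached the median over all genes, a log2 value of 6.19. Of 166 measured genes in the stretch, 95 passed and are the members, out of 19775 genes in all, and the other 71 were dimmer. Brightness, the mean over the arrays, is the measured value that the members were chosen by. The stretch itself was selected on its KO minus WT differences, since its genes were already known to read lower in these arrays, so the counts over members below are a description of it and no test that it stands apart.

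The samples were total RNA of HuH7 cells, a human hepatocellular carcinoma line, on Affymetrix Human Genome U133 Plus 2.0 arrays. The KO group was 2 samples of HuH7 carrying a KDM6B knockout genotype, and the WT group was 2 samples of HuH7 with wild-type KDM6B. All were the same line, and the knockout cells had in addition been through transfection of a guide vector and a Cas9 vector, G418 selection and cloning by limiting dilution, which the labels describe for the knockout alone. The labels do not say whether the KO samples are 2 subclones or 1, or whether samples of a group were separate cultures, so the p-values reflect how far these samples scatter and nothing more, and that scatter may be technical. What separates KO from WT in these arrays therefore covers the edit, the selection and the choice of clone, which cannot be told apart.

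KDM6B encodes a demethylase that removes methyl groups from lysine 27 of histone H3, a mark of silenced genes. The genes between it and the chromosome end are no pathway. They are a mixed neighbourhood that holds subunits of RNA polymerase II, the proteasome and the spliceosome next to genes typical of liver cells, such as both subunits of the asialoglycoprotein receptor. Loss of the short arm of chromosome 17 is a common change in liver cancer. The arrays measured RNA, and DNA copy number was not analysed here. In RNA from a whole culture, fewer cells that express a gene and less RNA per cell cannot be told apart.

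The guide targets the gene at which the stretch ends, and its sequence is given by the labels. Its position was not determined here, because no genome sequence was used.
KDM6B guide: cacagcgcccttcgatacgg
RefSeq promoter entries (GRCh38.p14) were found for 77 of the 95 members. The sequences below belong to genes whose values are described further on, and no relation between sequence and value was tested. The first 4 are the whole spacers between start sites of divergent neighbours, written along the plus strand. Divergent neighbours are pairs of genes read away from each other from start sites a short distance apart. Where a gene had several start sites, the closest were used. By their full RefSeq spans GLOD4 overlaps MRM3, DERL2 overlaps MIS12, and ZNF232-AS1 lies within ZNF232. DERL2-MIS12 is chr17:5486179-5486373, GLOD4-MRM3 is chr17:782281-782352, ZNF232-ZNF232-AS1 is chr17:5111879-5111934 and ZBTB4-POLR2A is chr17:7484250-7484365. Capitals mark GC boxes (GGGCGG on either strand) and CCAAT boxes (CCAAT on either strand).
DERL2-MIS12: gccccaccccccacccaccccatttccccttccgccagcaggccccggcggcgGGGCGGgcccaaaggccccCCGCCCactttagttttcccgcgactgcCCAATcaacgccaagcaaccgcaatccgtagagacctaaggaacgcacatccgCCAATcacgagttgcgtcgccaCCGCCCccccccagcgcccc
GLOD4-MRM3: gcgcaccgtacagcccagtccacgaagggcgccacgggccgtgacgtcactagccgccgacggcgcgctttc
ZNF232-ZNF232-AS1: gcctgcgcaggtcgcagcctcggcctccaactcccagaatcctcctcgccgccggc
ZBTB4-POLR2A: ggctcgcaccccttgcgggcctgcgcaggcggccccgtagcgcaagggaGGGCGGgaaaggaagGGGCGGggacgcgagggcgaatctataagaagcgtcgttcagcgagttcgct
The last 3 are the 150 bases before the start sites of SLC13A5 and TM4SF5, which were among the lowest members, and of TLCD2, which was not lower. They are written 5′ to 3′ along the gene, with the same capitals. SLC13A5 is chr17:6713370-6713519 on the minus strand, TM4SF5 is chr17:4771736-4771885 on the plus strand and TLCD2 is chr17:1710378-1710527 on the minus strand.
SLC13A5: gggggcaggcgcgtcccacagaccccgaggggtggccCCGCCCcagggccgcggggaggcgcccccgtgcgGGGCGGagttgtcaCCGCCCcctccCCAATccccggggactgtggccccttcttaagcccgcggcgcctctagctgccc
TM4SF5: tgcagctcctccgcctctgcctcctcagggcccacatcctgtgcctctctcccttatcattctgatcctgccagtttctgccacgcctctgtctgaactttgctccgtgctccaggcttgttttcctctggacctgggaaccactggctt
TLCD2: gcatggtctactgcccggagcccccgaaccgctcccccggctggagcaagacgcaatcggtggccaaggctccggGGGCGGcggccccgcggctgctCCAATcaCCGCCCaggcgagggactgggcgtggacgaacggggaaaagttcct
Both boxes occur upstream of SLC13A5 and of TLCD2, and neither occurs in the window of TM4SF5. A match is a run of letters and no shown binding site.

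Values below are log2 expression values as deposited, and a difference is KO minus WT on that scale with its standard error (SE) from limma, n = 2 each. A gene was called when limma's two-sided p, adjusted by Benjamini-Hochberg over all 19775 genes, was under 0.05. Over all probe sets the KO arrays correlated at 0.994 and the WT arrays at 0.992, and a KO array with a WT array at 0.985 to 0.989. A member's values typically spread by 0.09 in KO and by 0.09 in WT (median SD over members). Markers of hepatocytes and hepatoma were high on both sides: albumin (ALB) averaged 13.89 in KO and 13.80 in WT, and alpha-fetoprotein (AFP) 13.70 and 13.76. Of the 8 measured markers of this list, all above the median brightness, SERPINA1 was called lower at -0.49. The other 7 did not pass. Among them, APOA2 at -0.59, FOXA2 at -0.34 and AFP at -0.06 had both KO arrays below both WT arrays. Of the lists for other cells, 1 of 7 fibroblast, 1 of 5 endothelial and 2 of 5 leukocyte markers reached the median brightness. The leukocyte marker PTPRC averaged 3.17 in KO and 3.09 in WT, while LYZ, also a leukocyte marker, read 9.35 in KO and 10.93 in WT and was called lower. The endothelial marker PECAM1 averaged 6.39 in KO and 7.27 in WT and was also called lower, and the part of other cells in the results below was not tested.

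Most members read lower in KO. Of the 95 members, 91 had a difference below 0 and 4 above, that is 95.8% below 0, against 48% of all genes and 55.5% of genes at or above the median brightness. The median difference was -0.62, with quartiles of -0.82 and -0.39 and a range of -2.40 to 0.20. A gene at that median read 1.53-fold lower in KO on the linear scale. Limma called 60 members lower (63.2%), against 3.94% of all genes and 6.86% of the 9888 bright ones, meaning those that reached the median brightness. It called 0 members higher, against 3.14% of all genes and 5.24% of bright genes, and at an unadjusted p under 0.05 the counts were 75 lower and 0 higher. The remaining 35 members did not pass. For 6 members, SRR, P2RX5, HASPIN, ZZEF1, ZNF232-AS1 and NEURL4, the KO mean was under the brightness minimum and the WT mean above it, so that they had to differ in this direction to be members at all, and for 0 members it was the other way round. Among the other 89 members, 56 were called lower, and their median was -0.61. On the arrays themselves, both KO values lay below both WT values for 86 members (90.5%), against 23.5% of all genes and 34.8% of bright genes. They lay above both WT values for 1 member (1.05%), against 22.4% of all genes and 25% of bright genes, and the groups overlapped for 8.

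Each KO array showed the shift by itself. Set against the WT mean, the median over members was -0.61 in KO 1 and -0.59 in KO 2, while the medians of KO 1 minus KO 2 and of WT 1 minus WT 2 were 0.04 and 0.02. The shift was moderate for most genes: 12 members were at -1 or lower, 53 between -1 and -0.5, and 30 above -0.5. With 2 arrays a group, single calls rested on every array. Limma called 0 members lower without KO 1 (67 at an unadjusted p under 0.05), 1 without KO 2, 5 without WT 1 and 6 without WT 2, and the calls over all genes fell to between 37 and 192, against 1399 with all arrays. The median over members stayed between -0.63 and -0.59 when any 1 array was left out. Without probe sets of the types that may cross-hybridise, 30 of 71 members were called lower, and the median was -0.57.

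**Figure D1:**
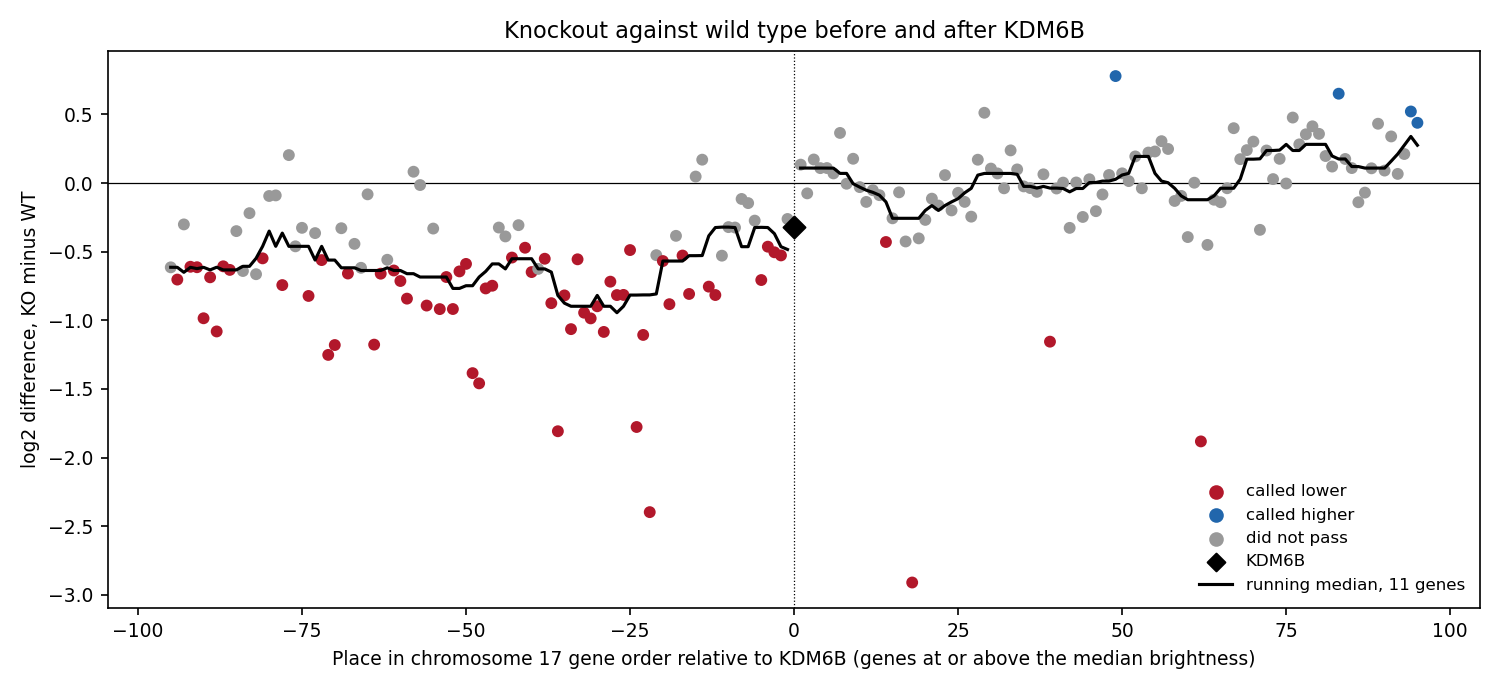
Log2 difference, KO minus WT, for every bright gene (mean at or above the median over genes) in gene order on both sides of KDM6B, with members to the left and the same number of following genes to the right, coloured by call, with a running median as a line and KDM6B as a diamond. Most of the 95 members lie below 0 with a median of -0.62, and the following 95 genes scatter around a median of 0.03.

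The lower values of most members did not continue in the first genes after KDM6B. KDM6B itself, the targeted gene (chr17:7834217-7854796), read 7.95 and 8.14 in KO, against 8.46 and 8.27 in WT, a difference of -0.32 ± 0.12 (SE) that did not pass (limma adjusted p = 0.235). Its 5 probe sets ran from -0.40 to -0.21. An edit in the DNA need not change the amount of RNA, and where the probe sets lie relative to the guide was not determined, so these values do not check the genotype.

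Beyond KDM6B the 95 next bright genes, NAA38 to TAOK1, had a median of 0.03, and 42 of them (44.2%) were below 0. Limma called 4 of them lower and 4 higher, 4.21% each way, and both KO arrays lay below both WT arrays for 23.2% and above them for 30.5%. The first 5 of these were NAA38 at 0.13, CYB5D1 at -0.08, CHD3 at 0.17, RNF227 at 0.11 and TRAPPC1 at 0.11, and each missed the test. The last 5 members before KDM6B were, in order, SENP3 at -0.71, MPDU1 at -0.46, FXR2 at -0.50, SAT2 at -0.53 and WRAP53 at -0.26. All but WRAP53 (adjusted p = 0.239) were called lower. The 4 lower genes among the following 95 included MYH4, a skeletal muscle myosin, at -2.91 and SLC47A1, a cation and drug exporter, at -1.88. The KO means of MYH4 and SLC47A1, 4.91 and 5.76, lay under the brightness minimum, so both were counted only through WT. RANGRF, called at -0.43, and MYH4 lay in an unbroken run below 0, from place 10 (LINC00324) to place 22 (MAGOH2P) after KDM6B. In that run STX8 at -0.43 and SCO1 at -0.40 did not pass, and LINC00324 was near 0 at -0.03. Over all 514 following genes of chromosome 17 the median was 0.05, with 18 called lower and 39 higher. Among whole chromosomes, counted without members, medians of bright genes ran from -0.37 on chromosome 13 to 0.05 on chromosome 17. On chromosome 13, 130 of 161 bright genes were below 0. Limma called 36 of the 161 lower (22.4%, against 6.86% of all bright genes) and 4 higher.

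Members called lower lay along the whole stretch. The first 5 members were MGC70870 (chr17:54857-57966) at -0.61, RPH3AL at -0.70, RFLNB at -0.30, VPS53 at -0.61 and TLCD3A at -0.61, of which RPH3AL, VPS53 and TLCD3A were called lower. Cut into 5 consecutive blocks of 19 members, the medians were -0.61 (MGC70870 to TLCD2), -0.62 (WDR81 to CAMKK1), -0.64 (ATP2A3 to CAMTA2), -0.88 (KIF1C to DVL2) and -0.46 (PHF23 to WRAP53), and 10, 10, 13, 18 and 9 of the 19 were called lower. The block from KIF1C to DVL2 was the lowest. Both KO arrays lay below both WT arrays for all 19 of its members, against 90.5% of all members. In the other blocks, in gene order, this held for 16, 17, 18 and 16 of the 19, so it sets this block little apart. Blocks of the same size after KDM6B had medians of -0.05, -0.04, 0.01, -0.00 and 0.21.

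ASGR1 and ASGR2 encode the subunits of the asialoglycoprotein receptor, with which hepatocytes take up desialylated glycoproteins from blood. ASGR1 (chr17:7173431-7179370) had the lowest difference of all members. Its values were 6.95 and 7.47 in KO, against 9.72 and 9.50 in WT, a difference of -2.40 ± 0.19 (SE, n = 2 each; limma adjusted p = 0.00426). KO values of ASGR1 were 0.190 times those of WT on the linear scale, and the groups lay far apart. ASGR2 (chr17:7101322-7115146), the brighter of the pair, read 10.57 and 10.40 in KO, against 11.52 and 11.67 in WT, a difference of -1.11 ± 0.10 (adjusted p = 0.00638). Its groups did not overlap either. Both are read by probe sets of a type that may cross-hybridise.

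The list of secreted and hepatocyte surface proteins held 5 members, of which 4 were called lower. Limma called 63.2% of all members and 6.86% of bright genes lower, so the counts of lists are to be read against the former share. The median difference of the list was -1.11, against -0.62 over all members and -0.04 over all bright genes. That median was -0.82 without cross-hybridising types of probe set and -0.33 with no brightness minimum. CXCL16, a chemokine made as a membrane protein that can also take up oxidised lipoprotein, had 8.05 and 7.76 in KO, against 9.37 and 9.21 in WT, a difference of -1.38 ± 0.13 (adjusted p = 0.00702). SERPINF1, which encodes the secreted factor PEDF, read 10.27 and 10.33 in KO, against 11.17 and 11.08 in WT, a difference of -0.82 ± 0.08 (adjusted p = 0.00779). For both genes every KO array was below every WT array. Its neighbour SERPINF2, the plasmin inhibitor alpha-2-antiplasmin, differed by -0.33 ± 0.17 and did not pass (adjusted p = 0.398).

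**Figure D2:**
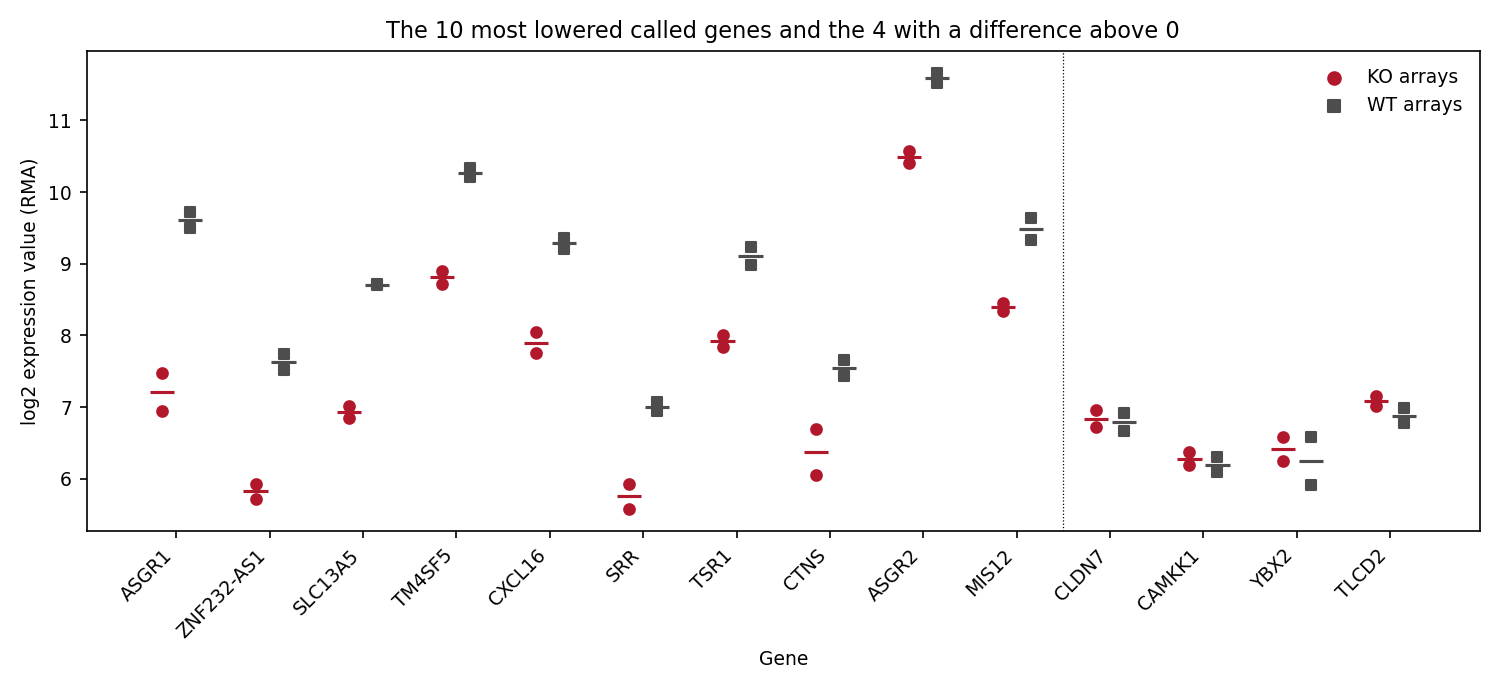
Log2 expression value on each array, KO points left of WT points, for the 10 lowest called members and, right of the dotted line, the 4 members above 0, with the group means drawn as short lines. ASGR1, at 6.95 and 7.47 in KO, against 9.72 and 9.50 in WT, has the widest gap, and TLCD2 is the member whose KO arrays both lie above its WT arrays.

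Metabolic and transport genes made up 16 members, with a median of -0.57. Of these, 10 were called lower, against 63.2% of all members, and 6 did not pass. SLC13A5 carries citrate from blood into liver cells, where it feeds fat synthesis. It read 7.01 and 6.85 in KO, against 8.72 and 8.70 in WT, a difference of -1.78 ± 0.11 and the lowest adjusted p of the members named here, 0.00224. The arrays of each group lay close together, and KO values were 0.292 times those of WT. SRR, the enzyme that makes D-serine, had 5.93 and 5.57 in KO, against 7.07 and 6.94 in WT, a difference of -1.25 ± 0.17 (adjusted p = 0.0159), and it reached the brightness minimum only through WT. CTNS, the lysosomal cystine exporter that is defective in cystinosis, had 6.69 and 6.05 in KO, against 7.43 and 7.66 in WT, a difference of -1.18 ± 0.23 (adjusted p = 0.044). The KO arrays of CTNS differed from each other by more than those of SLC13A5 and SRR, without reaching the WT arrays. The brightest of the list were TMEM256, at -0.32 ± 0.12, which did not pass, and SAT2, a polyamine acetyltransferase relative. SAT2 had 9.95 and 9.90 in KO, against 10.43 and 10.47 in WT, and was called lower at -0.53 ± 0.08 (adjusted p = 0.0238). ACADVL, the first enzyme of the breakdown of very long chain fatty acids, differed by -0.53 ± 0.13 and missed the test (adjusted p = 0.0773), although both KO arrays, at 8.46 and 8.19, lay below 8.78 and 8.92 in WT. ATP2A3, a calcium pump, and SLC43A2, an amino acid transporter, differed by -0.01 and -0.09, and their groups overlapped.

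RNA processing and translation held 13 members, with a median of -0.81, and 11 were called lower, against 63.2% of all members. TSR1, a factor needed to mature the small ribosomal subunit, read 7.85 and 8.01 in KO, against 9.23 and 8.99 in WT, a difference of -1.18 ± 0.13 (adjusted p = 0.00868). TSR1 (chr17:2322396-2336457) overlaps SRR (chr17:2303378-2325264) at its end, and both read lower. C1QBP, a mitochondrial matrix protein needed for translation in mitochondria, was the brightest of the list, with 11.55 and 11.76 in KO, against 12.71 and 12.49 in WT, a difference of -0.94 ± 0.12 (adjusted p = 0.0129). EIF5A, the translation factor that carries hypusine, had 9.81 and 9.57 in KO, against 10.46 and 10.43 in WT, a difference of -0.75 ± 0.11 (adjusted p = 0.0184). None of these 3 had KO and WT arrays that overlapped. MRM3, which methylates mitochondrial ribosomal RNA, was called lower at -1.08, the helicase DHX33 at -0.99 and GEMIN4, of the complex that assembles spliceosomal particles, at -0.98. PRPF8, the core protein of the spliceosome, was called lower at -0.74. The members that did not pass were WRAP53, which guides telomerase RNA to Cajal bodies, and YBX2, an RNA-binding protein of germ cells.

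Of 16 members that act in transcription, chromatin or chromosomes, with a median of -0.65, 12 were called lower, against 63.2% of all members. MIS12, a kinetochore subunit, read 8.34 and 8.46 in KO, against 9.63 and 9.33 in WT, a difference of -1.08 ± 0.13 (adjusted p = 0.012). RPA1, the largest subunit of the protein that coats single-stranded DNA, had 10.28 and 10.25 in KO, against 10.95 and 10.71 in WT, a difference of -0.56 ± 0.11 (adjusted p = 0.0398). MED31 of the Mediator complex had 9.97 and 9.92 in KO, against 10.46 and 10.41 in WT, a difference of -0.49 ± 0.08 (adjusted p = 0.0287). These differences were small for RPA1 and MED31, and larger than the gap between replicate arrays for all 3. POLR2A, the largest subunit of RNA polymerase II, differed by -0.27 ± 0.12 and did not pass (adjusted p = 0.281), nor did its neighbour ZBTB4, SMYD4 or CAMTA2.

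Protein turnover and folding held 9 members, with a median of -0.66, and 7 were called lower, against 63.2% of all members. PSMB6, a catalytic subunit of the proteasome, read 11.30 and 11.28 in KO, against 11.99 and 12.09 in WT, a difference of -0.75 ± 0.08 (adjusted p = 0.00872). TXNDC17, a thioredoxin-like protein, had 11.18 and 11.13 in KO, against 12.00 and 11.94 in WT, a difference of -0.81 ± 0.08 (adjusted p = 0.00694). Replicate arrays of both genes lay close together, and the groups did not overlap. DERL2, which helps export misfolded proteins from the endoplasmic reticulum, was lower at -0.90.

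Of 12 genes of vesicle traffic, autophagy and motors, 6 were called lower, against 63.2% of all members. The median of the 12 was -0.50, or -0.32 with the mean of all probe sets of a gene. RABEP1, an effector of RAB5 on early endosomes, read 8.75 and 8.87 in KO, against 9.71 and 9.55 in WT, a difference of -0.82 ± 0.10 (adjusted p = 0.0143). GABARAP, an autophagosome protein, had 11.84 and 11.71 in KO, against 12.13 and 12.19 in WT, and its difference of -0.38 ± 0.09 missed the test (adjusted p = 0.0617). Its groups nevertheless did not overlap. RILP, a RAB7 effector, and RAP1GAP2 differed by -0.09 and -0.08, with groups that overlapped.

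Of 11 signalling, adhesion and cytoskeleton genes, with a median of -0.35, 3 were called lower, against 63.2% of all members. The list as drawn up also counts TLCD2, a gene of membrane lipid composition, at 0.20. The list median was -0.13 with the mean of all probe sets and -0.12 without cross-hybridising types. With the brightness minimum at the 75th percentile it was -0.57. ITGAE, an integrin subunit of intraepithelial lymphocytes, had 10.40 and 10.29 in KO, against 10.95 and 11.01 in WT, a difference of -0.64 ± 0.09 (adjusted p = 0.0169). PFN1, the actin-binding protein profilin, had 11.65 and 11.73 in KO, against 12.16 and 12.17 in WT, a difference of -0.47 ± 0.08 (adjusted p = 0.0278). HASPIN, a histone kinase gene that lies within the span of ITGAE, was called lower at -0.71, in the chromatin list. The third of the signalling genes called was DVL2, a relay of WNT signals, at -0.57. For the 14-3-3 protein YWHAE the difference of -0.64 ± 0.15 did not pass (adjusted p = 0.0714). P2RX5, an ATP-gated ion channel, stood alone in a list of immunity and cell death and did not pass.

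Among the 12 members of none of these lists, 7 were called lower, against 63.2% of all members. TM4SF5, a tetraspanin-like membrane protein studied in liver cancer, read 8.90 and 8.72 in KO, against 10.21 and 10.33 in WT, a difference of -1.46 ± 0.11 (adjusted p = 0.00358). The antisense RNA ZNF232-AS1 had 5.72 and 5.93 in KO, against 7.75 and 7.52 in WT, a difference of -1.81 ± 0.15 (adjusted p = 0.0045), the second lowest of the members. Its KO mean lies under the brightness minimum and it is a member only through WT. The groups of both were well apart. Another probe set of ZNF232-AS1 read 6.15 and 6.42 in KO, against 6.75 and 6.54 in WT, a difference of -0.36, so the size for this gene depends on the probe set.

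The members that did not follow were few. TLCD2, which shapes membrane lipid composition, had 7.02 and 7.16 in KO, against 6.99 and 6.78 in WT, a difference of 0.20 ± 0.13 (adjusted p = 0.512), and was the member with both KO arrays above both WT arrays. YBX2 read 6.59 and 6.25 in KO, against 5.91 and 6.58 in WT, a difference of 0.17. CAMKK1, a calcium-dependent kinase kinase, had 6.19 and 6.37 in KO, against 6.10 and 6.30 in WT, a difference of 0.08. The tight-junction protein CLDN7 read 6.96 and 6.72 in KO, against 6.66 and 6.92 in WT, a difference of 0.05. The arrays of YBX2, CAMKK1 and CLDN7 overlapped, and each of the 3 differences turned to below 0 when some single array was left out.

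Dimmer genes had differences nearer 0. Ranked by brightness and cut in 3 parts, 13 of 32 members were called lower in the dimmest (median -0.52), 20 of 32 in the middle (-0.63) and 27 of 31 in the brightest (-0.66), and the 4 members above 0 all lay in the dimmest. Over the whole series too, lower calls were more frequent among bright genes, 6.86% against 3.94% of all genes. Shares of all genes in the brightness ranges of these 3 parts were not counted. The 71 genes of the stretch under the minimum had a median of -0.01. Of these, 39 (54.9%) were below 0, against 48% of all genes and 55.5% of bright genes. Limma called 3 of the 71 lower: ENO3, the muscle enolase, at -0.84, LOC728392 at -0.80 and CHRNB1, a muscle acetylcholine receptor subunit, at -0.75. That is 4.23%, against 3.94% of all genes and 6.86% of bright genes. Shares over the dim genes of the whole series were not counted. They lie under those of all genes, because those of bright genes lie above. The 71 include 9 olfactory receptor genes, whose median was 0.05. Just inside the minimum stood P2RX5 with a mean of 6.20 and a difference of -0.56 and CAMKK1 with 6.24 and 0.08, and just outside it PELP1-DT with 6.08 and -0.61 and TNK1 with 5.99 and -0.31. No detection calls were used, so a dim value could not be told from background.

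Other probe sets of the same genes, which the choice of the brightest had set aside, gave a second reading. They hybridise the same RNA and are no further replicates. Of the members, 50 had 96 such probe sets, and 39 of these, on 28 members, reached the median brightness. Of the 39, 38 were below 0, with a median of -0.65, while the 57 dimmer ones had a median of -0.08 with 37 below 0. For 27 of the 28 members the next brightest probe set had the sign of the brightest, with a median gap of 0.10 between them. The exception was NLGN2, a synaptic adhesion protein, at -0.32 on the brightest and 0.12 on the next. The sizes could differ more: the other probe sets of TSR1 read -1.34, -1.13 and -0.38. RPH3AL, called lower on its brightest probe set, had dim ones at 0.20 and 0.14.

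Several members encode 1 part of a complex or 1 relative of a family whose other genes lie outside the stretch, which allowed them to be set beside those genes. Of 76 listed partners and relatives, 74 were measured and 72 reached the median brightness. Their median was 0.01, and limma called 2 lower and 3 higher, against 6.86% lower and 5.24% higher over all bright genes. With any 1 array left out, limma called 0 partners (6 or 7 lower and 5 to 8 higher at an unadjusted p under 0.05). The stretch was chosen for its low differences, while all bright genes had a median of -0.04. Members would therefore lie below most other bright genes, whichever were listed, and the next count is a description only. How often a member lay below other bright genes was not counted. In 21 of 22 lists the member had a lower difference than every partner at or above the median brightness. The exception was PAFAH1B1, the dynein regulator LIS1, at -0.44, because its partner NDE1 was called lower at -0.56. Which lists are exceptions depends on the probe set. Another bright probe set of PAFAH1B1 read -0.86, below NDE1. Another bright probe set of GEMIN4 read -0.65, above its partner GEMIN5 at -0.72.

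PSMB6 at -0.75 stood below the other 6 proteasome subunits listed, which ran from -0.39 to 0.37, with PSMB3, the brightest, at -0.08. POLR2A at -0.27 stood below 11 polymerase subunits, which ran from -0.15 to 0.21. RPA1 at -0.56 differed from RPA3 at 0.14, MIS12 at -1.08 from NSL1 at -0.11, MED31 at -0.49 from MED8 at -0.32 and VPS53 at -0.61 from VPS51 at -0.02. These partners did not pass the test. The 3 relatives called higher belonged to different families. FXR2, an RNA-binding protein related to the fragile X protein, was at -0.50, while its relatives FMR1 and FXR1 were at 0.09 and 1.03, and FXR1 was called higher. KIF1C, a kinesin, was at -0.55 and its relative KIF1B was called higher at 0.60. Another bright probe set of KIF1C read only -0.12, with groups that overlapped. YWHAE, at -0.64, did not pass, and its relative YWHAH was called higher at 0.50. GABARAP, which did not pass at -0.38, had the relatives GABARAPL2 at 0.26 and GABARAPL1 at 0.83, neither of which passed. EIF5A at -0.75 and PFN1 at -0.47 had the relatives EIF5A2 at -0.15 and PFN2 at 0.23, neither of which passed. GEMIN4 at -0.98 had 1 called partner, GEMIN5, at -0.72.

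The divergent pairs printed above can be read against the values of both genes. The stretch held 9 pairs with start sites at most 1000 bases apart, and both genes were called lower in 6. Among single members 63.2% were called lower, and how often both of any other neighbours were called was not counted. DERL2 was at -0.90 and MIS12 at -1.08 across a spacer of 195 bases, and GLOD4 at -0.69 and MRM3 at -1.08 across 72 bases. ZNF232 was at -0.88 and ZNF232-AS1 at -1.81 across 56 bases, the widest gap of the 9. ZBTB4 at -0.15 and POLR2A at -0.27, which share 116 bases, was the pair in which no gene was called. In 2 pairs, SMYD4 with RPA1 and SLC25A11 with RNF167, 1 gene of the pair was called lower. The median gap within pairs was 0.24, against 0.28 for the 85 other neighbours in gene order.

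The members' promoters were close in base composition to those of other bright genes. Over the 300 bases of the RefSeq entries, 250 before the start and 50 after, median GC content was 67% in members, against 65.7% in other bright genes and 58.3% in all genes. Observed over expected CpG was 0.87, against 0.852 and 0.58. The GC box GGGCGG was found on either strand in 71.4% of members, against 71.6% of those other genes and 44.6% of all. CCAAT was found in 29.9% of members (38% and 35.7%), the ETS motif CCGGAAG in 16.9% (21% and 10.7%) and TATAAA in 2.6% (5.15% and 12%). Motifs were counted separately, whether or not they overlapped. Median GC was 66.7% in members called lower and 68.2% in members not called, and a GC box was found in 70.2% and 73.3%.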

How the data were processed

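RNA of 2 KO and 2 WT HuH7 samples was measured on arrays, with groups and replicate numbers taken from the sample titles. The deposited values are log2 expression values per probe set, which the authors made with RMA and the affy package per the submitters' processing notes; the sources used here give no versions. RMA equalises the distributions of arrays, so a change shared by most genes is removed. Values ran from 1.57 to 14.33, array medians from 4.96 to 5.05, and precision is limited by there being 4 arrays.

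Of 54613 probe sets, 41091 had 1 symbol, 1801 several and 11721 none, and 41037 matched RefSeq (GRCh38.p14) by Entrez identifier. The fit used limma 3.58.1 in R 4.3.3 (lmFit, eBayes with intensity trend; 2 residual and 3.62 prior degrees of freedom), with no filter, and was tested on simulated data. An exact permutation test of 2 against 2 arrays cannot go below 0.333 and was not run. Positions, lists and figures used Python 3.11.15, pandas 2.3.3, NumPy 2.4.6 and matplotlib 3.10.9. Upper-percentile and other alternatives are in the closing section.

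Members and lists were chosen with earlier results of these data known. Genes named with values were KDM6B, the 10 lowest called members, every member above 0, the 2 brightest of each list, the 5 first and last, those nearest the brightness minimum, the 5 genes after KDM6B, called partners and the brightest partner of each named member; examples beyond these were chosen after their values were seen. One gene that the rule named and a list of targets of a transcription factor are not reported here. KO 1 minus KO 2 and WT 1 minus WT 2 correlated at -0.55 over genes, and nothing in the labels pairs equal numbers.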

Additional observations from a re-analysis of the deposited data

How the results depend on the processing

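The median difference of the members stayed between -0.65 and -0.56 under every alternative but 1: with no brightness minimum, over 166 genes, it was -0.37. Among members called lower, 60 as reported, the count was 33 without the intensity trend, 30 of 71 without cross-hybridising types of probe set, 37 of 47 with the minimum at the 75th percentile, where 47 were below 0, 0 to 6 with 1 array left out and 5 with the replicate block; elsewhere it was 54 to 74. The 5 calls among partners became 2 without the trend, 3 with the mean of all probe sets of a gene, 9 with dim genes left out before the fit, 11 at an adjusted p under 0.10, 25 with the crossed block and 0 with any array left out. Equal replicate numbers are not known to pair the arrays; with the number as a replicate block, 5 members and 0 partners (5 lower and 6 higher at an unadjusted p under 0.05) were called by limma, and 175 of all genes, against 1399. With the numbers crossed, which was added after seeing the data, 74 members and 3662 genes were called. The last block minus the first, 0.15, was 0.34 with the probe set mean, and the medians of lists were then -0.48 for transcription, -0.32 for vesicle traffic and -0.13 for signalling. Signalling was at -0.12 and secreted proteins at -0.82 without cross-hybridising types, signalling at -0.57 at the 75th percentile, and secreted proteins at -0.33 and metabolism at -0.43 with no minimum. Signs turned for 10 results near 0 or read by 1 type of probe set. With 1 array left out, CAMKK1 ran from -0.0191 to 0.18, CLDN7 from -0.0819 to 0.18, YBX2 from -0.17 to 0.51, FMR1 from -0.28 to 0.46, VPS51 from -0.13 to 0.0855, NSL1 from -0.25 to 0.0433, EIF5A2 from -0.30 to 0.00273 and CYB5D1 from -0.15 to 0.00071. VPS51 was 0.0145 after quantile normalization once more, and RPH3AL was 0.20 without cross-hybridising types. Apart from what follows from the construction of an alternative (fewer arrays, genes or probe sets), the cause was not tested.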

Other observations

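Probe sets whose annotation names several genes were outside the comparison. Of these, 31 had all their genes before KDM6B on chromosome 17, and 16 reached the median brightness. Of the 16, 15 were below 0, against 55.5% of bright genes and 95.8% of members. Both KO arrays lay below both WT arrays for 13, against 34.8% of bright genes and 90.5% of members. The median of the 16 was -0.45, with a range of -1.29 to 0.10. They read the stretch that was chosen for its low values, and such probe sets of other regions were not counted.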
